A study of Mus musculus with 3 samples.

Results

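The Trim genes encode tripartite motif proteins, and those described here were the genes with a protein-coding transcript whose symbol is Trim followed by a number and an optional letter. That rule found 68 of the 55536 annotated genes, and 21901 genes in all had a protein-coding transcript. The rule used symbols only, so the pseudogene Trim30e-ps1, the Trim-like genes Triml1 and Triml2, and relatives under other symbols, such as Pml and Mid1, were not members. Levels came from chromatin-fraction RNA, the RNA left bound to chromatin when a nucleus is fractionated, of primary macrophages grown from C57BL/6J bone marrow. All cells had received Lipid A, the TLR4-binding part of bacterial lipopolysaccharide, at 100 ng/ml for 10 min. The design had 1 group of 3 libraries, labelled biological replicates 1, 2 and 3, made from 1 µg, 250 ng and 500 ng of RNA in that order. The labels give them 1 donor entry, so the spread between them may be partly technical, and amount and replicate cannot be told apart. No unstimulated library is used here, so a level below describes stimulated cells and no response to Lipid A can be read from it.

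A tripartite motif protein carries a RING domain, 1 or more B-box zinc fingers and a coiled coil at its amino-terminal end. The RING domain of most members transfers ubiquitin or a related modifier to other proteins. The carboxy-terminal end differs between members and sets what each binds: a PRYSPRY (SPRY) domain in many antiviral and immune forms, a PHD finger with a bromodomain in chromatin regulators, and NHL repeats, a COS box or a transmembrane stretch in others. In macrophages the family is best known for restricting viruses and for tuning the signals downstream of Toll-like receptors and cytosolic nucleic acid sensors, and a number of its genes are induced by interferon.

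The libraries held 14386725 to 16005795 estimated counts on annotated genes. All 8 macrophage markers examined reached a TPM of 1 (a transcript abundance corrected for length and library size) in every library, with a summed TPM of 1850, 1260 and 995 in replicates 1, 2 and 3. None of the 16 markers of T cells, B cells, erythroid cells, neutrophils, fibroblasts, mast cells, natural killer cells and epithelium did so. Their summed TPM was 1.43, 1.18 and 0.52, and 10 of them, Cd3e, Elane and Epcam among them, were at 0 in every library. Not all of these zeros held in the authors' second quantification of the same libraries, taken up below. There Cd3e, Elane and Epcam had a mean TPM of 0.0709, 0.0294 and 0.573, and the highest of the 16 was Col1a1 at 1.16. Protein-coding genes held 31.6%, 25.3% and 22.1% of all TPM in replicates 1, 2 and 3, so a TPM in replicate 1 stands against a larger messenger share than one in replicate 3.

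Promoter sequence is shown first for the members that carried the core of the interferon-stimulated response element, because many of the members with the highest levels are known interferon targets. The 250 bases before each RefSeq start were searched on both strands for GAAANNGAAA, where N is any base. RefSeq promoters (mm10) were found for 53 members, and 5 of these genes (9.43%) held a match, against 936 of 27025 genes (3.46%) in the whole promoter table. By promoter rather than gene the shares were 7.46% and 2.98%. The 5 were Trim5, Trim12c, Trim30a, Trim30d and Trim26, and all matches lay on the strand opposite to transcription. Other members known as interferon inducible, Trim25, Trim12a, Trim34a, Trim34b, Trim21 and Trim56, had a promoter entry but no match, and Trim14 had no entry. Each stretch below runs 5′ to 3′ on the strand of the gene, and the capitals mark the match as it reads on that strand. Those of Trim5 (chr7:104288107-104288195, minus strand), Trim12c (chr7:104353350-104353418, minus), Trim30a (chr7:104465194-104465269, minus), Trim30d (chr7:104507850-104507930, minus) and Trim26 (chr17:36836946-36837041, plus) are given.
Trim5: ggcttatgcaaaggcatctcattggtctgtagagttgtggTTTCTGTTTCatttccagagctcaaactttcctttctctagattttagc
Trim12c: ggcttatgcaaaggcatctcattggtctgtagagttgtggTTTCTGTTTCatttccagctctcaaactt
Trim30a: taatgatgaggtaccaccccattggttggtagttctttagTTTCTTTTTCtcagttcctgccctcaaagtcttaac
Trim30d: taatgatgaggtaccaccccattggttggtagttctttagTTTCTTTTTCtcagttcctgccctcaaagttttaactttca
Trim26: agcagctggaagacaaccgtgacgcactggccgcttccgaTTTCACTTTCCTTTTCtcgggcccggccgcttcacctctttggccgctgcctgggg

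The capitals in Trim26 cover 2 overlapping matches. Aligned without gaps at the best offset, the Trim30a and Trim30d promoters were identical at 226 of 245 positions (92.2%), with a longest identical run of 118 bases. The Trim5 and Trim12c promoters shared a run of 71 bases that holds the match, and 72.3% of 231 aligned positions. The matches within each of these pairs are thus not independent, and the share of members with a match rests partly on copied promoters. A match is only these letters in this window, and no binding was measured. The levels of the 5 genes ranged from a mean TPM of 8.38 for Trim5 to 84.2 for Trim30a, so genes with the match stood in the upper and the middle part of the family.

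Of the 68 members, 40 had a TPM of at least 1 in each of the 3 libraries (58.8%), which is called detected here, against 46.1% of all genes with a protein-coding transcript. A count of 0 in every library was found for 9 members (13.2%), against 30.6% of such genes. The 9 were Trim31, Trim40, Trim42, Trim52, Trim54, Trim55, Trim58, Trim63 and Trim80. A count of 0 allows up to 3 counts, or 0.191, 0.187 and 0.209 CPM (library-size-normalized counts) in replicates 1, 2 and 3, and this limit covers counting error only. The remaining 19 members had counts without being detected, and 5 of them, Trim45, Trim43c, Trim34b, Trim75 and Trim66, had a mean of 10 or more. The median TPM over all 68 members was 3.76, 2.98 and 2.53 in replicates 1, 2 and 3, against 0.86, 0.83 and 0.57 over all genes with a protein-coding transcript. On the log2(TPM + 1) scale the medians differed by 1.21 ± 0.12 (SD, n = 3). With genes under a TPM of 0.1 in every library left out, that difference was 0.27 ± 0.17 (SD, n = 3). Most of it thus lay in the share of genes at or near 0. Among detected members the median TPM was 12.8, 12 and 10.3 in replicates 1, 2 and 3. Over all detected genes with a protein-coding transcript it was 14, 11.4 and 9.66. Detected members were thus lower in replicate 1 and slightly higher in replicates 2 and 3.

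**Figure D1:**
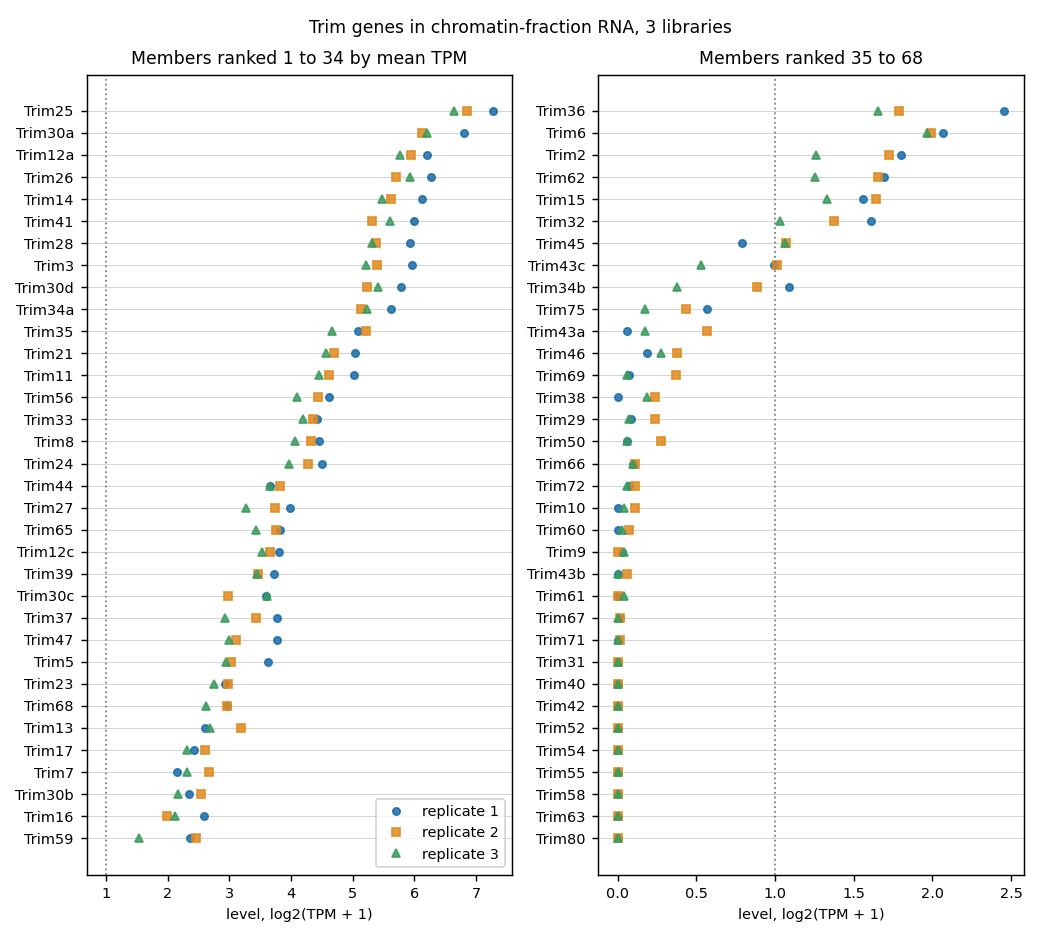
Level of each of the 68 Trim genes in each library, as log2(TPM + 1) on the horizontal axis, ordered by mean TPM in both panels, whose axis ranges differ; symbols mark replicates 1, 2 and 3, and the dotted line is a TPM of 1. Trim25 stands at the top with a mean TPM of 123, 40 members lie right of the dotted line in all 3 libraries, and the 9 lowest were at 0 in each.

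The summed TPM of the family was 1120, 852 and 790 in replicates 1, 2 and 3, and the 10 genes with the highest mean held 68.3%, 62.8% and 67.1% of it. Trim25, the ubiquitin ligase that activates the RNA sensor RIG-I, was first, with a TPM of 153, 115 and 99.4 and 13.7%, 13.5% and 12.6% of the family's total. It stood at the 98.6th percentile of genes with a protein-coding transcript. Neighbours in the order of mean TPM mostly could not be told apart: for 36 of 39 neighbouring pairs of detected members the ranges over the libraries overlapped. In 14 of the 39 pairs the higher gene was higher within every library. Trim24 and Trim44, Trim13 and Trim17, and Trim6 and Trim2 were the pairs whose ranges did not overlap. By TPM, 29 of the 40 detected members were highest in replicate 1, whereas by CPM scaled between libraries 14, 8 and 18 were highest in replicates 1, 2 and 3.

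Members that act in innate immune signalling were detected in 11 of 12 cases, with a median TPM of 17.8, 15.8 and 12.7 in replicates 1, 2 and 3. Trim26, which has been reported to target the transcription factor IRF3, had a TPM of 76, 50.9 and 59.7. Trim14, an adaptor of the antiviral complex on mitochondria, had 68.6, 48 and 43.3. Both stayed above every other gene of this list except Trim25 in each library. Annotated exons of Nans lie on the opposite strand over 31.3% of the exonic bases of Trim14, and whether counting used strand is not stated in the sources, so the level of Trim14 is uncertain. Trim21, the cytosolic receptor for antibody-coated particles, had a TPM of 31.8, 24.9 and 22.8.

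Trim56, linked to STING and TLR3 signalling, had a TPM of 23.5, 20.6 and 16.2. Trim8, which promotes NF-kB activation, had 20.8, 19 and 15.7. These values overlapped, and both genes lay below Trim21 within each library. Trim27, a nuclear and cytoplasmic ligase first found fused to RET, had 14.8, 12.4 and 8.61. Trim65, a ligase for the RNA sensor MDA5, had 13.2, 12.5 and 9.82. Trim65 and Trim27 could not be ordered, since each was higher in some library.

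At the low end of the list, Trim23, which carries an ARF GTPase domain, had a TPM of 6.64, 6.92 and 5.77. Trim13, a ligase of the endoplasmic reticulum membrane, had 5.08, 8.14 and 5.41. Trim32, an NHL protein that is mutated in a limb-girdle muscular dystrophy and can modify STING, had 2.05, 1.59 and 1.04, the lowest mean of the 40 detected members. Trim38, known for limiting TLR3 and TLR4 signalling, was the gene of this list that was not detected, with a TPM of 0, 0.18 and 0.14 and a mean estimated count of 2.33. With so few counts its level was near the detection limit in every library.

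The Trim genes of chromosome 7 that lie between Trim6 and Trim30d (mm10, chr7:104218793-104507849) form a dense SPRY cluster near the β-globin region, which in mice has expanded from the locus of the retroviral restriction factor TRIM5. Of its 10 members 9 were detected, with a median TPM of 12.1, 9.34 and 10.9, and their levels ranged widely. Trim30a (chr7:104409025-104465193, minus strand), which limits TLR-induced NF-kB signalling by promoting the loss of TAB2 and TAB3, had a TPM of 111, 69 and 73.1. Its neighbour Trim30d (chr7:104470014-104507849, minus) had 53.8, 36.4 and 41.7. Trim30a was higher in all 3 libraries, with a log2(TPM + 1) difference of 0.91 ± 0.12 (SD, n = 3, exact sign-flip test, two-sided p = 0.25, adjusted p = 0.286 over 8 pairs). With 3 libraries 0.25 is the smallest p this test can give, so no pair could pass 0.05.

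The other 2 Trim30 genes were lower. Trim30c had a TPM of 11.1, 6.89 and 11.2, and Trim30b had 4.06, 4.84 and 3.5. In this table Trim30b lay below Trim30c in every library, but the order turned over in the second transcript table, the authors' other quantification, where Trim30b had 11.1, 11.2 and 13.1 and Trim30c 10.8, 7.93 and 12.6. The order of these genes is therefore not settled. Distinct 50-base windows shared between the annotated transcripts of Trim30a and Trim30d were 5.98% and 6.39% of those of each gene. Most of the sequence of these genes thus differs at that length.

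Trim12a (chr7:104299894-104315466, minus), a mouse relative of TRIM5, had a TPM of 72.7, 60.8 and 53.4 and ranked just below Trim30a. Its paralogue Trim12c (chr7:104338754-104353362, minus), reported to promote type I interferon and NF-kB signalling, had 13, 11.6 and 10.6. Trim5 (chr7:104263386-104288094, minus) had 11.3, 7.11 and 6.7. The gap between Trim12a and Trim12c was 2.31 ± 0.09 on the log2(TPM + 1) scale (SD, n = 3, exact sign-flip p = 0.25, adjusted p = 0.286). Trim5 was lower than Trim12c by a smaller amount, -0.47 ± 0.25 on that scale (exact p = 0.25, adjusted p = 0.286), in all 3 libraries. These genes share 24.2% of the 50-base windows of Trim12c and 23.5% of those of Trim5, so part of their reads could not be placed by sequence alone.

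Trim34a (chr7:104244457-104262234, plus), an interferon-induced gene, had a TPM of 48.4, 34.1 and 36.8. Its near copy Trim34b (chr7:104329471-104336909, plus) had 1.13, 0.85 and 0.3 and was the gene of the cluster that was not detected, although in the second transcript table it had 3.69, 2.57 and 2.05 and was. The difference was 4.55 ± 0.31 on the log2(TPM + 1) scale (SD, n = 3, exact p = 0.25, adjusted p = 0.286), and 3.34 in that second table. Shared 50-base windows made up 39.8% of those of Trim34a and 56.8% of those of Trim34b, the highest share of any pair of members. The authors' deposited SD of read assignment for Trim34b was 1.95, 1.92 and 1.35 counts, beside estimated counts of 26.06, 24.14 and 8.22. Trim6, the first gene of the cluster by coordinate, had 3.19, 2.98 and 2.91 TPM, but 8.48, 16.4 and 12.8 TPM in the second transcript table, so both its level and its steadiness depended on the table.

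**Figure D2:**
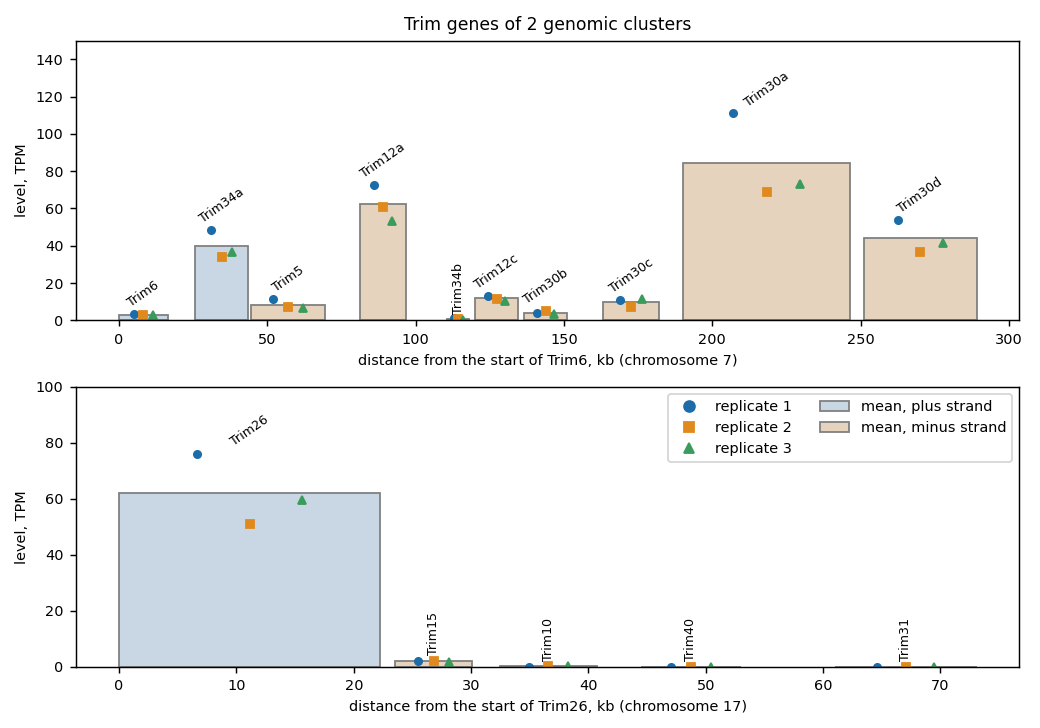
Trim genes of the chromosome 7 cluster (top) and of the chromosome 17 cluster from Trim26 to Trim31 (bottom), drawn to scale along the chromosome in kb from the start of the first gene, with TPM on the vertical axis. Bars span each gene at its mean TPM over 3 libraries, coloured by strand, and points give replicates 1, 2 and 3; Trim30a, Trim12a, Trim30d, Trim34a and Trim26 stand above 30 in every library while their neighbours stay under 15.

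The genes listed as interferon inducible overlap with those above and were detected in 10 of 11 cases, with Trim34b again the exception. Their median TPM was 53.8, 36.4 and 41.7 in replicates 1, 2 and 3, against 3.76, 2.98 and 2.53 over all members. The list was chosen with earlier results of these data known, and Trim5, Trim6, Trim30b and Trim30c of the chromosome 7 cluster are not on it. The gap therefore describes the listed genes only, not interferon-inducible members in general. All these values are levels 10 min after Lipid A, and no basal level is given here. In bulk RNA fewer cells and less RNA per cell cannot be told apart.

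In the region next to the major histocompatibility complex, Trim26 (chr17:36837134-36859398, plus) was the gene with a high level. The next gene, Trim15 (chr17:36860691-36867210, minus), had a TPM of 1.95, 2.12 and 1.51. Beyond it Trim10, an erythroid gene, had 0, 0.08 and 0.03, and Trim40 and Trim31, both known from the gut epithelium, had no counts. A drop from a mean TPM of 62.2 to 1.86 thus separated these neighbouring genes. Trim39 (chr17:36258873-36272247, minus), an E3 ligase linked to apoptosis, stood at 12.2, 10.1 and 9.96. With Trim27, which lies on chromosome 13 in the mouse, 4 of the 7 genes listed for this region were detected.

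Chromatin regulators with a PHD finger and a bromodomain were detected in 3 of 4 cases. Trim28 (chr7:12999114-13031035, plus), the corepressor KAP1 that KRAB zinc finger proteins bring to retroelements, had a TPM of 59.7, 40.8 and 38.8. Trim33, a regulator of Smad signalling that also represses Ifnb1 in macrophages, had 20.4, 19.6 and 17.4. Trim24, a cofactor of nuclear receptors, had 21.7, 18.3 and 14.6. Trim24 and Trim33 could not be separated (difference -0.08 ± 0.16 on the log2(TPM + 1) scale, SD, n = 3, exact sign-flip p = 0.5, adjusted p = 0.5). Trim28 was above both in every library, by 1.21 ± 0.26 over Trim33 (exact p = 0.25, adjusted p = 0.286), and Trim24 stood -1.29 ± 0.16 from Trim28 (exact p = 0.25, adjusted p = 0.286). Without the division by length the order of Trim28 against each turned over (CPM is not divided by length), and in the second transcript table the differences were 0.66 from Trim33 and -0.79 for Trim24. Trim66, the germ-cell member of the group, had a TPM of 0.07, 0.08 and 0.07.

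Genes of the silencing machinery that works with Trim28 were examined as a list of non-members, and all 7 were detected, with a median TPM of 25.4, 24.4 and 18.1. Setdb1, the histone H3 lysine methyltransferase that Trim28 recruits, had a TPM of 42.8, 31.8 and 25.2. Atf7ip, which stabilises Setdb1, had 62.9, 50.5 and 56.4, and the HP1 genes Cbx1, Cbx3 and Cbx5 had means of 22.6, 13.6 and 9. Relatives of the family under other symbols were detected in 2 of 5 cases: Pml, the scaffold of PML nuclear bodies, at 51, 32.4 and 23.2, and Mid1, a microtubule-bound ligase, at 36.8, 27.6 and 18.9. Mid2, Mefv and Bspry were not detected. Some of these levels depended on the table. In the second transcript table Mid1 had a mean TPM of 111 ± 32.9 (SD, n = 3) and Mid2 1.09. Cbx3 had 34.1 there, above Cbx1 at 23.5, so their order turned over.

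Among the remaining structural classes, the NHL genes split. Trim3, an NHL ligase best known from neurons, had a TPM of 61.3, 41.3 and 36.1, whereas its relative Trim2 had 2.48, 2.31 and 1.39. The difference of Trim2 from Trim3 was -3.93 ± 0.24 on the log2(TPM + 1) scale (SD, n = 3, exact p = 0.25, adjusted p = 0.286). Trim71, the NHL gene of stem cells and target of let-7, had a TPM of 0.01 or less in every library, so 3 of the 4 NHL genes were detected.

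Of the 8 COS-box genes, which encode microtubule-associated members, only Trim36 was detected in the gene table, with a mean TPM of 3.03 ± 1.27 (SD, n = 3). None of the 4 striated muscle genes was (Trim54, Trim55, Trim63 and Trim72), and none of the 7 genes of germ line and early embryo (Trim43a, Trim43b, Trim43c, Trim60, Trim61, Trim71 and Trim75). These calls hold in the gene table: in the second transcript table Trim63, a COS-box and muscle gene, had a TPM of 3.81, 6.96 and 7.37, and Trim43c had 1.74, 2.53 and 1.42, so both were detected there. In the gene table Trim43c, the highest of the muscle and germ line genes, had a TPM of 0.99, 1.02 and 0.44. It overlaps 9330159M07Rik on the opposite strand over 38.6% of its exonic bases, and that gene had a mean TPM of 4.51. Among the 5 members listed as transmembrane, ARF, MATH or filamin forms 4 were detected, with Trim37, a MATH-domain ligase of centrosomes and peroxisomes, highest at 12.6, 9.77 and 6.61. Trim45, listed there as the filamin form, had 0.73, 1.1 and 1.09.

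The other genes of high level belong to none of these lists. Trim41 (chr11:48806404-48817353, minus), a ligase for protein kinase C, had a TPM of 62.4, 38.7 and 47.6. Trim35, a SPRY ligase of haematopoietic cells, had 33, 36.3 and 24.3. Trim35 was thus highest in replicate 2, unlike the 10 members above it, all highest in replicate 1. Detected members of lower mean TPM were Trim11 at 25.3, Trim44 at 12.1, Trim47 at 9.07 and Trim68 at 6.24. Below these stood Trim17 at 4.47, Trim7 at 4.27, Trim16 at 3.78 and Trim59 at 3.52. Annotated exons of Hist3h2a lie on the same strand over 19% of the exonic bases of Trim17. Hist3h2a had a mean TPM of 31.2, so the level of Trim17 is uncertain. Trim62, a SPRY ligase of epithelial polarity, had 2.23, 2.15 and 1.38 and was, with Trim15 and Trim32, among the 3 lowest of the detected members.

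Transcript classes were compared because chromatin-fraction RNA holds transcripts that are still being spliced. For a gene, the retained intron share is the percent of its TPM in transcripts that the annotation types as retained intron. Of the 40 detected members 18 had such a transcript, and their median share was 47%, 43.6% and 43.3% in replicates 1, 2 and 3, against 44.7%, 49.2% and 45.8% over 6419 protein-coding genes. The difference was -1.96 ± 3.96 percentage points (SD, n = 3) and changed sign between libraries, so the members were not separated from other genes. In 7 of the 18 the mean share exceeded 50%. The most abundant transcript was typed protein coding in 29 of the 40 detected members, retained intron in 9 and processed transcript in 2, Trim26 and Trim16.

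Trim28 had the highest mean share, with 76%, 80.6% and 66.8%, spread over 8 retained intron transcripts. Trim21 had 72.3%, 70% and 67.4%, above Trim28 in replicate 3. Trim68, a SPRY ligase first described as a coactivator of the androgen receptor, had 66.7%, 73.7% and 62.3%, close to the 67 ± 4.08% (SD, n = 3) of Trim3. At the other end stood Trim30a with 11%, 10.4% and 10.1%. Trim37 had 9.92%, 17% and 15.1%, and Trim12a had 24.4%, 24.5% and 26.2%. The 3 highest and the 3 lowest did not overlap in any library, but they were picked as the extremes of these same values. The share rests on the annotation, since Trim25, Trim14, Trim41, Trim30d and Trim34a have no transcript of that type and could show none. In the second transcript table the order changed at both ends: Trim3 at 74.3% and Trim21 at 74.1% stood above Trim28 at 70.7%, and Trim30b at 10.1%, Trim12a at 23.6% and Trim35 at 24.7% stood below Trim30a at 26.5%, with Trim37 at 30.9%.

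**Figure D3:**
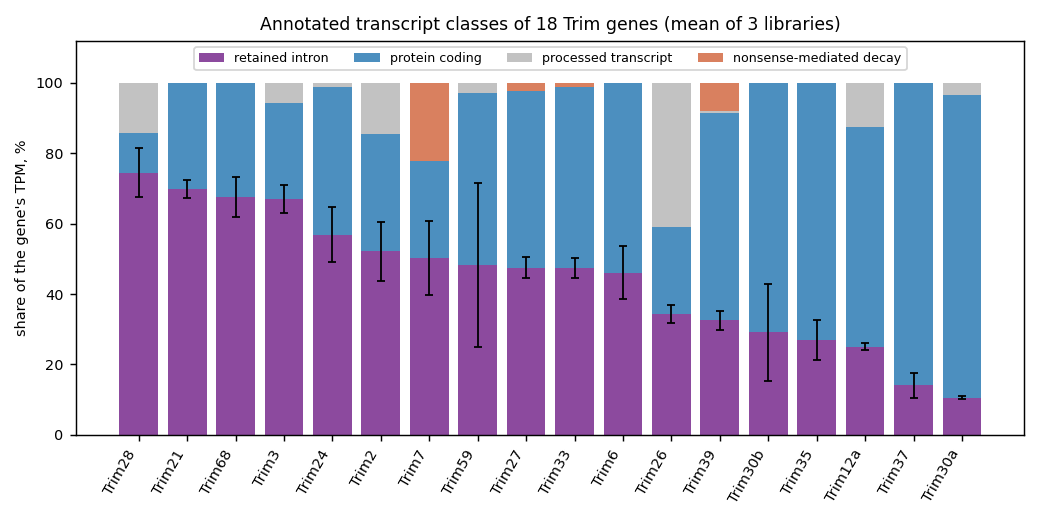
Share of each gene's TPM in the annotated transcript classes, in percent, for the 18 detected Trim genes with a retained intron transcript. Stacked bars are means over 3 libraries and black bars are ± 1 SD of the retained intron share; Trim28 stands at 74.5% and Trim30a at 10.5%, and Trim59 has the widest error bar.

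Variation between the libraries was read from counts, scaled between libraries, for the 45 members with a mean count of 10 or more. Each library was set against the mean of the other 2, as a description of libraries within 1 group and without a test. In replicate 1, 2 members were 1.5-fold or more above the others (background 5.89% of 11738 genes) and 4 were 1.5-fold or more below (background 5.09%). In replicate 2, 1 was above (background 5.21%) and 1 below (background 4.19%). In replicate 3, 1 was above (background 1.31%) and 3 below (background 6.09%). With 45 members, such counts are within a few genes of those backgrounds. They also depended on the library left out of the comparison. Without replicate 2, 2 members were below in replicate 1 and 2 above in replicate 3. Without replicate 1, 4 were above in replicate 2. Without replicate 3, 4 were above and 0 below in replicate 2. The backgrounds hold for 1 library against the mean of the other 2. No share over all genes is given with a library left out, so these last counts cannot be set beside one.

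Trim59, a membrane-anchored ligase, was the gene with the widest swing. Its estimated count was 48, 134 and 57 in replicates 1, 2 and 3, which put replicate 2 at a log2 ratio of 1.07 and replicate 1 at -0.94. Trim13 likewise was low in replicate 1, with counts of 97, 191 and 123. Trim45 had 38, 71 and 53, a log2 ratio of -0.69 in replicate 1, and Trim66, with 7, 13 and 10, had -0.62. These 4 were picked for being low in replicate 1 on scaled counts. By TPM, Trim59 was lowest in replicate 3 (4.14, 4.53 and 1.89), and Trim66 was equal in replicates 1 and 3.

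Trim30c, with counts of 238, 182 and 286, was low in replicate 2 (log2 ratio -0.78) and high in replicate 3 (0.70). Trim34b and Trim75 were low in replicate 3, at log2 ratios of -1.21 and -1.11, as was Trim43c at -0.62. Trim75, from the germ line list, rested on counts of 21, 19 and 7, so these calls came from few counts. In replicate 1, Trim34b and Trim75 were the 2 members above, and without replicate 3 there were 0.

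**Figure D4:**
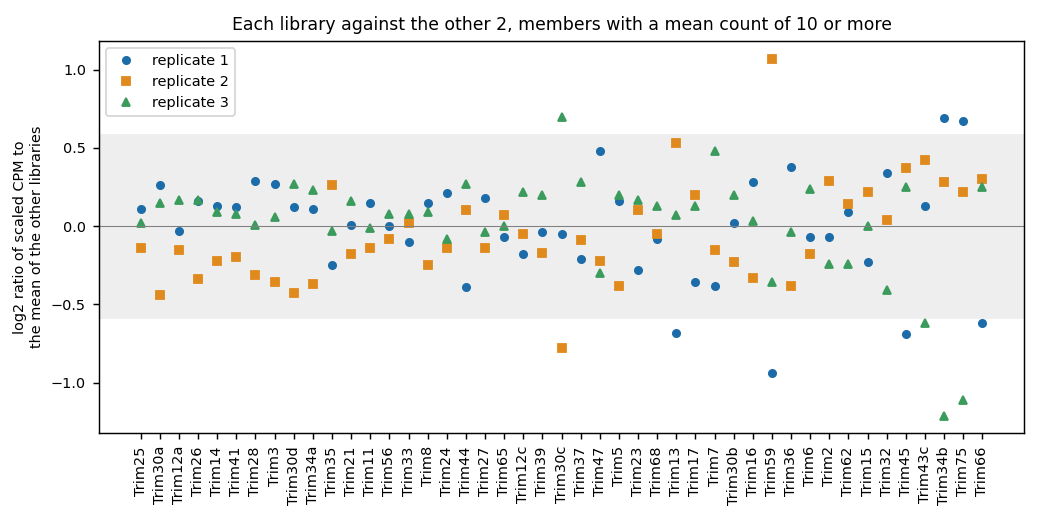
Log2 ratio of the scaled CPM of each library to the mean of the other 2 libraries (vertical axis), for the 45 Trim genes with a mean count of 10 or more, ordered by mean TPM; symbols mark replicates 1, 2 and 3, and the grey band is less than 1.5-fold. Points outside the band lie mainly at the low end on the right, with Trim59 at 1.07 in replicate 2 and Trim34b at -1.21 in replicate 3.

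The biological coefficient of variation (BCV), the spread between libraries beyond counting noise, had a median of 0.104 over the 45 members, against 0.105 over 11740 protein-coding genes. Above that second median stood 22 of the 45. Without replicate 2 the members' median was 0.0478, and no median over all genes is given for that fit. The 3 highest were Trim59 at 0.461, Trim34b at 0.437 and Trim75 at 0.37. The lowest value the estimate takes, 0.00988, was reached by Trim68, Trim65 and Trim62, and also by Trim15 and Trim66. Of the 2 highest members, Trim25 had a BCV of 0.0499 and Trim30a 0.168. Unshrunk estimates from 3 libraries are too uncertain to tell whether their scatter differs.

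The authors quantified the same libraries a second way, and the gene sums of that second transcript table were set beside the gene table. It detected 44 of the 68 members (64.7%, background 55.2%), the 40 above and 4 more, Trim52, Trim63, Trim43c and Trim34b. Over the 53 members with a mean of 10 or more counts in either table the median log2 ratio of the second to the gene table was 0.24, against 0.57 over 15283 protein-coding genes. Beyond 1 on this scale lay 10 of the 53 (18.9%), against 34.1% of those genes.

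Trim52 differed most, with no count in the gene table and a mean TPM of 14.3 ± 1.81 (SD, n = 3) in the second, with 12.3, 15.6 and 15.1 in the 3 libraries. Of its second-table counts 97.5% were in Trim52-202, typed as a processed transcript. Trim63, the muscle ligase MuRF1, had 0 against 6.05 ± 1.95, with Trim63-203, a retained intron transcript, as its top transcript. Trim43b had 0, 0.04 and 0 TPM in the gene table and 0.6, 1.59 and 1.27 TPM in the second. Trim67, a neuronal member, had 0.01, 0.01 and 0 TPM and then 0.308, 0.799 and 0.705 TPM. Among the detected members Trim6 had a mean TPM of 3.03 in the gene table and 12.6 in the second, and Trim30b 4.13 and 11.8. The other 4 beyond 1 were Trim9 at 2.12, Trim34b at 1.74, Trim71 at 1.73 and Trim43c at 1.12. For these 10 genes the level depends on which table is read. All were higher in the second table, but Trim52, Trim63, Trim43b, Trim67, Trim9 and Trim71 had a mean gene-table count of 1 or less. Those passed the count filter only through the second table, which fixed their direction in advance.

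**Figure D5:**
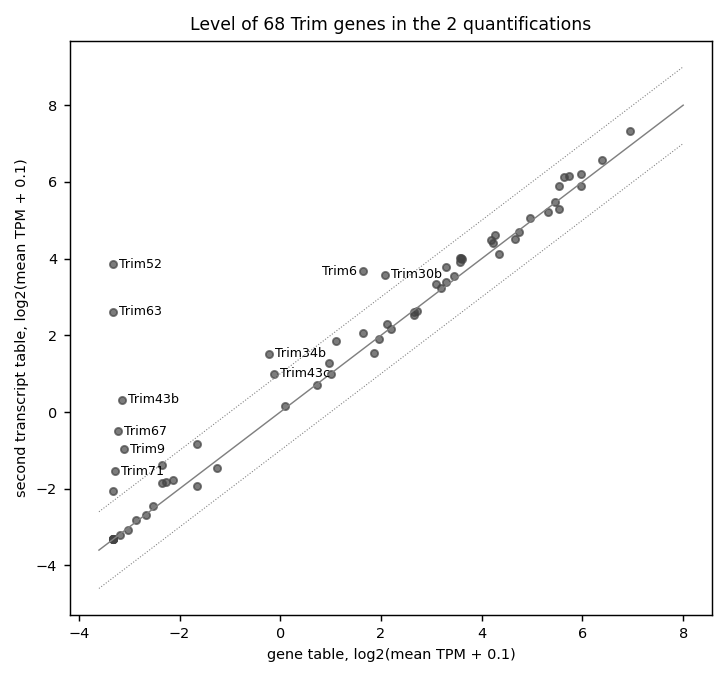
Mean TPM over 3 libraries of each of the 68 Trim genes in the gene table (horizontal axis) and in the second transcript table (vertical axis), both as log2(mean TPM + 0.1); the solid line is equality and the dotted lines are a difference of 1. Most detected members lie within the dotted lines, and Trim52 and Trim63 lie at the left edge because the gene table gave them no counts.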

How the data were processed

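Total RNA of the chromatin fraction was sequenced after ribosomal RNA depletion in 3 libraries of 1 group. The authors deposited, per the file headers, a gene table of estimated counts and TPM with an assignment SD (unit score), a first transcript table of expected counts and TPM, and a second transcript table of estimated counts and TPM. Per the deposited readme files these use mm10 and GENCODE M21. Programs, versions and strand use were not given in the sources used here. Of the counts, 1.16%, 0.459% and 0.351% in replicates 1, 2 and 3 were in rows that name no annotated gene and were left out.

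Second-table gene values are sums over transcripts. Levels were compared as log2(TPM + 1), which understates folds of low genes. Pairs of genes were tested by an exact two-sided sign-flip permutation over 3 libraries, with Benjamini-Hochberg adjustment. Counts, rounded to whole numbers, were scaled by TMM in edgeR 4.0.16 (R 4.3.3). Ratios between libraries used CPM plus 0.1. The BCV was estimated per gene with an intercept only and no shrinkage over genes with a mean count of 10 or more, and was tested on simulated data, where its medians fell below the true values. Shared sequence was counted in 50-base windows of GENCODE M21 transcripts. Other settings, DESeq2 1.42.0 size factors among them, are given in the closing section.

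The members and the 14 gene lists were chosen with earlier results of these data known. Values in every library were given for the 12 members with the highest mean TPM, the genes of the chromatin, chromosome 7 and innate signalling lists, the 3 lowest detected members, the 2 farthest above and below in each library past 1.5-fold, and the extremes of retained intron share, BCV and table disagreement. Others were named by count, range or mean.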

Additional observations from a re-analysis of the deposited data

How the results depend on the processing

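No paired comparison of groups was possible because the libraries form a single group. Only the genes of a pair were compared within each library. The number of detected members was 35 to 45 over other TPM thresholds, a count threshold, the second table and rescaled TPM. The median level of the members over that of protein-coding genes stayed positive in the settings tried. It was 1.90 with a pseudocount of 0.1, 1.89 on log2(CPM + 1), 0.77 in the second table and 1.72 with TPM rescaled over protein-coding genes. With low genes left out it was 0.27 ± 0.17 (SD, n = 3), and among detected genes the order of the medians changed between libraries. On log2(CPM + 1), which keeps gene length in the value, Trim24 minus Trim28 became 0.34 and Trim28 minus Trim33 became -0.62, while the gaps of Trim30a over Trim30d and Trim12a over Trim12c were 1.39 and 1.43. Every other alternative kept the sign of each pair, except that Trim24 minus Trim33 was -0.00 without replicate 3.

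Calls of 1.5-fold between libraries moved with the setting. For the settings that follow no share over all genes is given, so these counts cannot be read as particular to the members. The lower count filter also let in more members of few counts. With a mean count of 1 or more, 12 members were below in replicate 1, 9 above and 2 below in replicate 2, and 2 above and 6 below in replicate 3. The second table gave 7 below in replicate 1, 6 above in replicate 2, and 0 above and 1 below in replicate 3. Scaling by library totals gave 2 above in replicate 2 and 0 above in replicate 3. Leaving out each other library in turn, chosen after seeing the data, gave 0 (without replicate 3) to 2 above and 2 (without replicate 2) to 4 below in replicate 1. In replicate 2 it gave 4 above either way and 0 (without replicate 3) to 1 below, and in replicate 3 it gave 1 to 2 (without replicate 2) above and 2 to 4 below. The members' median BCV was 0.134 without the count filter and 0.0478 to 0.0934 with a library left out, lowest without replicate 2. No median over all genes is given for these fits. The cause of these shifts was not tested. Of the 40 named members, 20 moved in TPM by over 1 SD in the second table. On rescaling 38 moved, but rescaling changes the unit of every level, and the 2 that did not move, Trim52 and Trim63, were at 0. Depth limits members under about 10 counts, where no ratio between libraries was given.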
